A study of Mus musculus with 12 samples.

Results

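A set of 10 genes of the TGF-β, SMAD and Id families were followed in primitive bone marrow cells in which the oncogene BCR::ABL1 was either silent or switched on. They were named by symbol and not by a cut on their values, though earlier results of these data were known. They are the ligand Tgfb1, the receptors Tgfbr1 and Tgfbr2, the signal carriers Smad2, Smad3 and Smad4, the inhibitory Smad7, and the 3 Id genes Id1, Id2 and Id3. These 10 genes were matched among 56748 Ensembl gene identifiers, and 10 of 10 passed the filter on low counts. The 12 libraries came from irradiated B6.SJL recipient mice (CD45.1), 8 to 12 weeks old, that had received marrow of SCLtTA/BCR-ABL double transgenic (DTG) mice (CD45.2), and each library was made from donor-derived CD45.2+ Lin-Sca+Kit+ (LSK) cells, a sorted fraction that holds blood stem cells and early progenitors. All recipients drank tetracycline (TET), which holds BCR::ABL1 silent in this model, for 2 weeks after transplantation. In the CTRL group (n = 6, labelled normal) TET was continued, and in the CML group (n = 6, labelled CML 2wk) it was withdrawn for 2 weeks, so donor genotype, irradiation and transplantation were common to both groups. Expression of the transgene is limited to cells in which the SCL element drives the transactivator. The donor marrow was a pool from several animals of both sexes, and the human BCR::ABL1 transcript is not among the mouse genes counted. The labels give male for every CTRL sample and female for every CML sample, while the design text mentions recipients of both sexes, so labelled sex and TET withdrawal cannot be told apart here. Nothing in the labels ties a library to a named animal, and p-values therefore measure the spread between these samples.

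TGF-β1 is a secreted ligand that is made in a latent form and must be released before it binds. It brings together the type II receptor encoded by Tgfbr2 and the type I receptor encoded by Tgfbr1, which phosphorylates SMAD2 and SMAD3. These join SMAD4 and enter the nucleus to regulate transcription, and SMAD7, itself induced by the pathway, blocks the receptor. The ID proteins are helix-loop-helix factors without a DNA-binding region that sequester E proteins, and their genes are classical targets of the related BMP branch, which signals through SMAD1 and SMAD5. In the blood system TGF-β is known as a signal that holds stem cells in quiescence.

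Library totals ranged from 22804754 to 41832868 counts in CTRL and from 16150817 to 25070105 in CML. Transcript abundance over all genes differed widely between the groups. Of 18438 genes tested with edgeR, 59.5% passed an adjusted p of 0.05, 30.6% higher and 29.0% lower in CML, and the values of the 2 groups did not overlap for 37.6% of genes. The sorting and stem cell markers, summed in counts scaled to library size (CPM), fell from between 2812 and 3194 in CTRL to between 1736 and 2234 in CML (exact permutation test, two-sided, adjusted p = 0.00487, n = 6 per group). Of the 10, 8 were lower, Ptprc, the CD45 gene, was higher and Ly6a, the Sca-1 gene, was not called. Ly6a ran from 27.2 to 38.3 CPM in CTRL and from 31.3 to 73.9 in CML. With the same test and the same adjusted p, the monocyte and macrophage total was higher (158.6 to 208.1 against 335.4 to 675.8 CPM). Of its 10 genes, 3 were called higher, 0 lower and 6 not called, and Ccr2 ran from 65.0 to 89.3 CPM in CTRL and from 188 to 404 in CML. The mast cell and basophil total was also higher (316.5 to 428.7 against 496.3 to 2677), with 7 of 10 genes higher and 1 lower. Gata2 in that list ran from 203 to 243 CPM in CTRL and from 70.8 to 149 in CML. The megakaryocyte and platelet total was lower (295.5 to 346.6 against 94.34 to 256.5), with 8 of 10 genes lower and 0 higher. By the same exact permutation test, the erythroid (adjusted p = 0.443), B cell (0.0649), T and NK cell (0.0649) and neutrophil (0.0891) totals did not pass. Of 10 genes in each, 7 erythroid genes were lower and 1 higher, and 4 B cell genes were lower and 0 higher. For T and NK cells 3 were lower and 2 higher, and for neutrophils 4 were lower and 3 higher. No marker gene was at 0 in a whole group. Stromal and endothelial markers reached 978.8 CPM in CML replicate 2 and 472.4 in CML replicate 4 but at most 222.9 in the other CML libraries, below the lowest CTRL total of 227.5 (adjusted p = 0.457 by the exact permutation test over 6 against 6). These 2 libraries stood apart, and results are also given without them. That setting removes libraries from CML only, so the CML libraries left all have lower stromal and endothelial totals than any CTRL library. Bulk RNA cannot separate fewer cells of a type from less RNA per cell, and the part of these shifts in cell makeup in the gene values that follow was not tested.

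Of the 10 genes, 6 passed the test, a share close to that of all genes. Id1 and Smad7 were higher in CML, 2 of 10 beside 30.6% of all genes. Tgfb1, Tgfbr2, Smad3 and Smad4 were lower, 4 of 10 beside 29.0%. Tgfbr1, Smad2, Id2 and Id3 did not pass. The values of the 2 groups did not overlap for 4 of 10 genes, Tgfb1, Smad3, Smad4 and Id1, beside 37.6% of all genes. The median log2 fold change was -0.22 over the 10 genes and 0.07 over all genes tested.

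**Figure D1:**
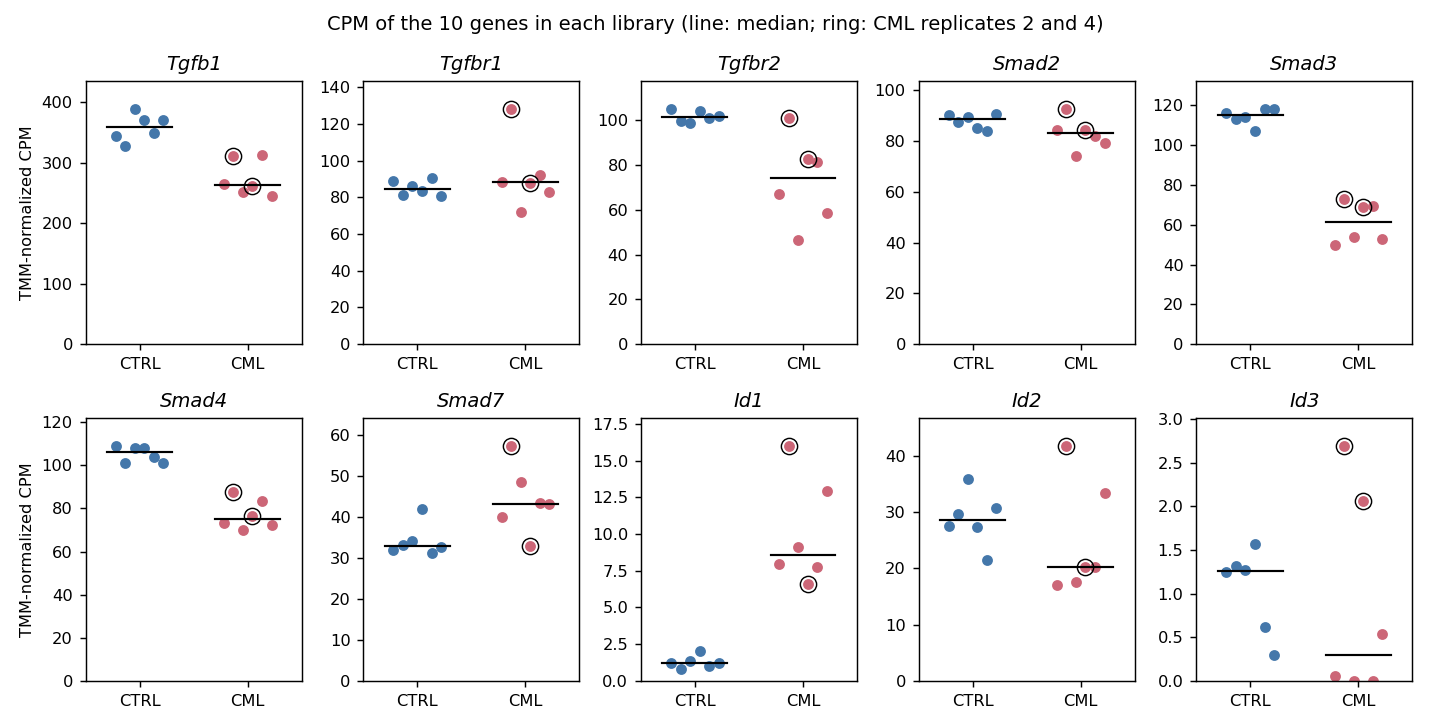
TMM-normalised CPM of each of the 10 genes (linear vertical axes from 0, 1 panel per gene) in the 6 CTRL and 6 CML libraries, with the group median as a line and CML replicates 2 and 4 ringed. The points of the 2 groups separate fully for Tgfb1, Smad3, Smad4 and Id1.

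Tgfb1 (ENSMUSG00000002603) was the most abundant of the 10 transcripts and was lower in every CML library than in any CTRL library. Its normalised level ranged from 327.2 to 387.8 CPM in CTRL (median 359.1) and from 244.9 to 312.0 CPM in CML (median 263.0). CML replicates 2 and 5 were the highest of their group and still lay under the lowest CTRL value. The log2 fold change was -0.38 (SE 0.0746, edgeR adjusted p = 0.000456), and -0.43 (SE 0.0822, edgeR adjusted p = 0.000428) without CML replicates 2 and 4.

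The pair of receptors differed in how they behaved. Tgfbr2 (ENSMUSG00000032440), whose product binds the ligand first, had a CTRL range of 98.83 to 104.5 CPM (median 101.5), with the lowest coefficient of variation of the 10 genes in CTRL, 2.29%. In CML the range was 46.59 to 101.1 CPM (median 74.35), with a coefficient of variation of 26.7%. The other 5 CML libraries lay under all CTRL values and CML replicate 2, at 101.1 CPM, lay within them. Tgfbr2 fell by 0.48 on the log2 scale (SE 0.14, edgeR adjusted p = 0.00854), and the log2 fold change was -0.69 (SE 0.118, edgeR adjusted p = 0.00016) without CML replicates 2 and 4. Tgfbr1 (ENSMUSG00000007613), the signalling kinase of the receptor, had 80.51 to 90.73 CPM in CTRL (median 84.68) and 72.2 to 127.9 in CML (median 88.13). The groups overlapped, and the top value was again CML replicate 2. Its log2 fold change of 0.11 (SE 0.106, edgeR adjusted p = 0.376) did not pass the test, nor did the -0.03 (SE 0.0744) obtained without CML replicates 2 and 4. Within each library, Tgfbr2 had 1.11 to 1.27 counts per Tgfbr1 count in CTRL (median 1.2) and 0.645 to 0.946 in CML (median 0.774), ranges that did not overlap. The ratios given here and below do not depend on how libraries are scaled to each other. They were chosen with the values known, and no test is given for them.

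Smad3 (ENSMUSG00000032402) had the largest decrease among the genes that passed. Its levels were 106.6 to 118.2 CPM in CTRL (median 115.0) and 49.95 to 73.02 CPM in CML (median 61.36). The 2 ranges were far apart, with CML replicates 2, 4 and 5 in the upper part of theirs. The level in CTRL was 1.86-fold that in CML (log2 fold change -0.90, SE 0.0933, edgeR adjusted p = 1.5e-06), and the log2 fold change was -1.03 without CML replicates 2 and 4. Smad2 (ENSMUSG00000024563), the other SMAD that the TGF-β receptor phosphorylates, was measured at 84.1 to 90.64 CPM in CTRL (median 88.63) and at 74.34 to 92.57 in CML (median 83.21). Those ranges overlapped and its log2 fold change of -0.09 (SE 0.0562, edgeR adjusted p = 0.198) did not pass. It did pass, at -0.15 (edgeR adjusted p = 0.0416), without CML replicates 2 and 4. The ratio of Smad3 to Smad2 counts was 1.25 to 1.41 in CTRL (median 1.28) and 0.592 to 0.843 in CML (median 0.756), so Smad3 had more counts than Smad2 in 6 of 6 CTRL libraries and fewer in 6 of 6 CML libraries.

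Smad4 (ENSMUSG00000024515), the partner shared by the TGF-β and BMP branches, was likewise lower in every CML library than in any CTRL library. It stood at 100.9 to 109.0 CPM in CTRL (median 105.7) and 69.82 to 87.53 CPM in CML (median 74.88). The log2 fold change was -0.45 (SE 0.0616, edgeR adjusted p = 2.22e-05) and -0.50 without CML replicates 2 and 4.

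Smad7 (ENSMUSG00000025880) rose. Its CPM ran from 31.16 to 41.97 in CTRL (median 32.9) and from 32.81 to 57.35 in CML (median 43.27). The groups overlapped, with CTRL replicate 4, at 42.0, above the other 5 CTRL libraries and CML replicate 4, at 32.8, below the other 5 CML libraries. The log2 fold change was 0.37 (SE 0.116, edgeR adjusted p = 0.0126) and 0.34 without CML replicates 2 and 4, while limma-voom with sample quality weights left it just short of the threshold (0.27, adjusted p = 0.0511). Counted against Smad3 within each library, Smad7 had 0.264 to 0.394 counts per Smad3 count in CTRL (median 0.285) and 0.476 to 0.901 in CML (median 0.792), with no overlap and the lowest CML ratio in replicate 4.

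**Figure D2:**
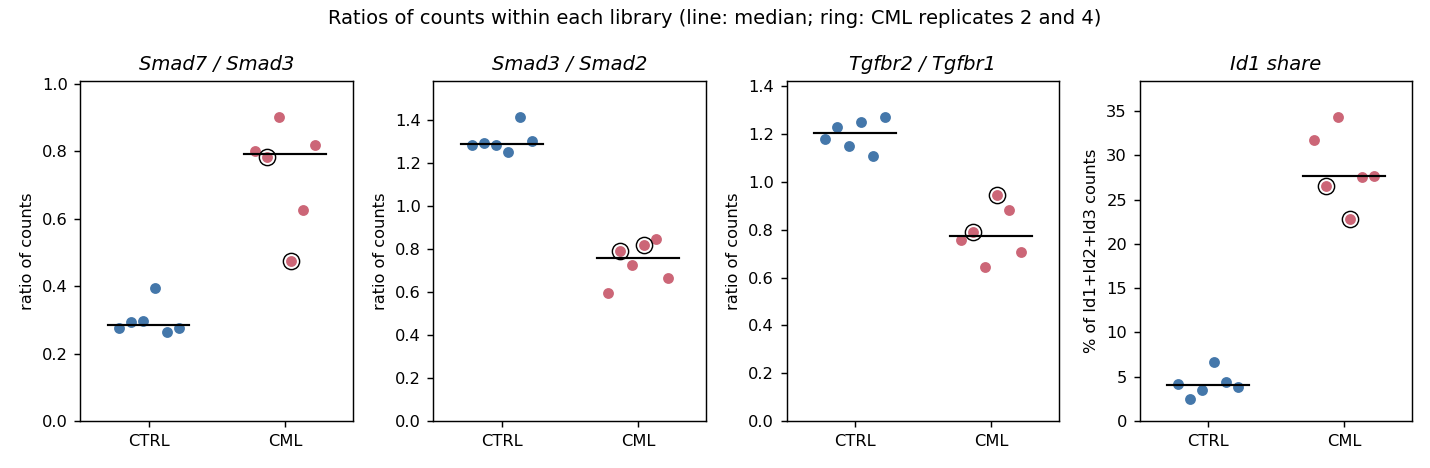
Ratios of read counts within each library (linear axes from 0) for Smad7 over Smad3, Smad3 over Smad2, Tgfbr2 over Tgfbr1, and Id1 as a percentage of Id1, Id2 and Id3 counts together, with group medians as lines and CML replicates 2 and 4 ringed. None of the 4 quantities overlaps between the 6 CTRL and 6 CML libraries. They were chosen with the values known and no test is given, and Smad3 and Id1 already separate on their own.

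The 3 Id genes did not move alike. Id1 (ENSMUSG00000042745) was a scarce transcript in CTRL, at 0.7913 to 2.074 CPM (median 1.245, 20 to 86 counts per library), and reached 6.606 to 16.01 CPM in CML (median 8.543, 122 to 375 counts). Every CML value was above every CTRL value, with CML replicates 2 and 6 the highest. The level was 7.73-fold higher (log2 fold change 2.95, SE 0.27, edgeR adjusted p = 4.82e-07) and the log2 fold change was 2.84 without CML replicates 2 and 4. Id2 (ENSMUSG00000020644), the most abundant of the 3, had 21.48 to 35.76 CPM in CTRL (median 28.52) and 17.03 to 41.67 in CML (median 20.3). The 4 lowest CML libraries, at 17.0 to 20.3 CPM, lay under the CTRL range, while replicates 2 and 6, at 41.7 and 33.3, lay above the CTRL median. The log2 fold change of Id2 was -0.20 (SE 0.209, edgeR adjusted p = 0.434), and it was -0.39 (edgeR adjusted p = 0.0696) without CML replicates 2 and 4. Without CML replicate 2 alone it passed, at -0.41 (edgeR adjusted p = 0.0402).

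Id3 (ENSMUSG00000007872) was close to the limit of detection. CTRL values ran from 0.301 to 1.57 CPM (8 to 65 counts). In CML replicates 1 to 6 the values were 0.057, 2.69, 0, 2.06, 0 and 0.542 CPM, so replicates 2 and 4 were above every CTRL library, replicates 1, 3 and 5 were below every CTRL library, and replicate 6 lay within the CTRL range. The counts of 0 in replicates 3 and 5 allow up to 0.183 and 0.112 CPM (3 counts, for counting error only). Over all 12 libraries the log2 fold change was -0.24 (SE 0.817, edgeR adjusted p = 0.82). Without CML replicates 2 and 4 it was -2.81 (SE 0.747, edgeR adjusted p = 0.00449), and without replicate 2 alone it was -1.04 (edgeR adjusted p = 0.262). The call for Id3 thus depended on how the libraries with the high stromal and endothelial markers were handled, and limma-voom with sample quality weights gave -2.60 (adjusted p = 0.0397). Id1 made up 2.50% to 6.68% of the summed counts of the 3 Id genes in CTRL (median 4.00%) and 22.8% to 34.3% in CML (median 27.6%).

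**Figure D3:**
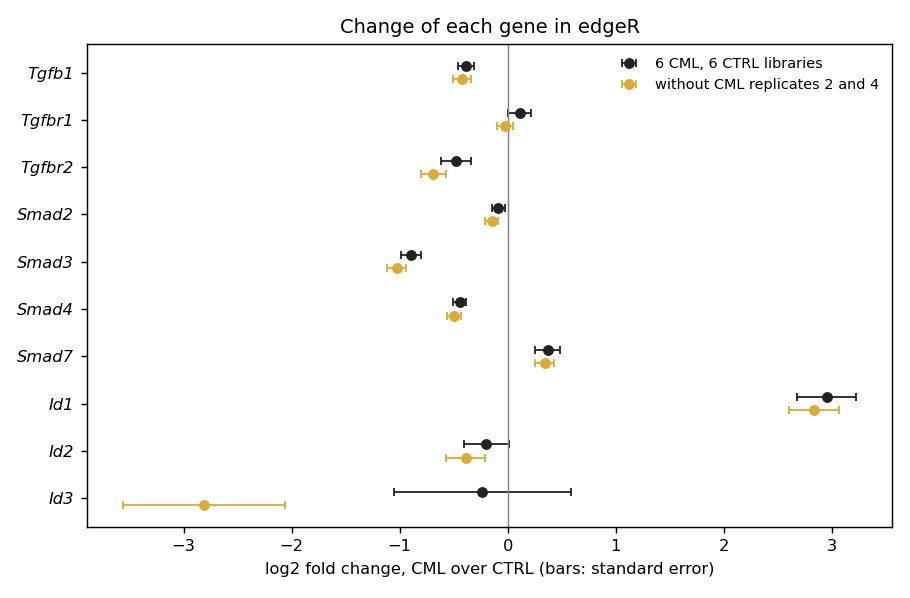
Log2 fold change of CML over CTRL for each gene with its standard error, from edgeR over all 12 libraries (black) and without CML replicates 2 and 4 (yellow). Id3 moves most, from -0.24 to -2.81, Tgfbr1 goes from 0.11 to -0.03, and Tgfbr2 and Id2 lie further below 0.

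With CML replicates 2 and 4 left out, 2 genes were higher and 6 lower, the added calls being Smad2 and Id3, and 64.0% of all genes passed (32.0% higher and 32.0% lower). Without CML replicate 2 alone, 2 were higher and 6 lower, the added calls being Smad2 (-0.13, edgeR adjusted p = 0.0445) and Id2, and 64.3% of all genes passed. Each library carried a number whose meaning the labels do not state. These numbers were close between the groups only for replicate 6, and for the other libraries they fell in separate ranges by group. If they mark a batch, it cannot be told apart from TET withdrawal in those other libraries. Between the 2 libraries of replicate 6, with no test, the log2 difference was -0.60 for Tgfb1, -0.81 for Tgfbr2, -1.16 for Smad3 and -0.48 for Smad4. It was 0.40 for Smad7, 3.30 for Id1, 0.04 for Tgfbr1 and -0.20 for Smad2. For Id2 (0.12) and Id3 (0.71) it was opposite in sign to the full comparison. Both libraries are part of the full comparison, and Tgfb1, Smad3, Smad4 and Id1 did not overlap between the groups. A shared direction is therefore no separate check. The spread between libraries was larger in CML for 10 of the 10 genes, with a median coefficient of variation of 5.54% in CTRL and 19.6% in CML, beside 10.1% and 21.1% over all genes tested. CML replicate 2 held the highest value of the 12 libraries for 6 of the 10 genes, beside 14.4% of all genes.

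Levels were compared between genes as CPM per kilobase of exon. In CTRL, Tgfb1 (median 71.2) was followed by Smad4 (28.5) and Smad3 (20.8), 3 genes whose ranges did not overlap. Next came Tgfbr1 (12.96), Tgfbr2 (12.4), Id2 (11.7) and Smad2 (10.1), each of which overlapped its neighbour, then Smad7 (7.28), and last Id1 (1.07) and Id3 (0.702), which overlapped. In CML, Tgfb1 (52.2) again stood clear of the rest. Smad4 (20.2), Tgfbr1 (13.5), Smad3 (11.1), Smad7 (9.57), Smad2 (9.48), Tgfbr2 (9.08), Id2 (8.33) and Id1 (7.36) formed a chain in which each overlapped the next, and Id3 (0.167) lay below. Smad3 thus went from place 3 to place 4 in the order, Smad7 from place 8 to place 5 and Tgfbr2 from place 5 to place 7. Id1 kept place 9, with a range that now overlapped that of Id2 above it.

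Promoter sequences were matched in the RefSeq promoter table for mouse build GRCm38.p6 for 6 of the 10 genes. Entries on a barred chromosome were not used. Smad4, which also fell, is not among the 6. The 250 bases before the start of Tgfb1, Tgfbr2 and Smad3 are shown because these genes fell together, and those of Id3 for its motif matches. They were searched on both strands for the SMAD core CAGAC, which reads as GTCTG from the other strand, the GC-rich SMAD site GGCGCC, the SMAD palindrome GTCTAGAC and the E-box CANNTG that E proteins bind, where matches of different motifs may share bases. Capitals mark matches to the core, and each sequence reads 5′ to 3′ on the strand of its gene.
Tgfb1, chr7:25686752-25687001, plus strand: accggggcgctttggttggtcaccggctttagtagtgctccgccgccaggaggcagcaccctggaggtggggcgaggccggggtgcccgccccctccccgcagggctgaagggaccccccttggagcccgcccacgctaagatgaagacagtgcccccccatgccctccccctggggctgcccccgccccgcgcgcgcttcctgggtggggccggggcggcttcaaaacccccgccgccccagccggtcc
Tgfbr2, chr9:116175364-116175613, minus strand: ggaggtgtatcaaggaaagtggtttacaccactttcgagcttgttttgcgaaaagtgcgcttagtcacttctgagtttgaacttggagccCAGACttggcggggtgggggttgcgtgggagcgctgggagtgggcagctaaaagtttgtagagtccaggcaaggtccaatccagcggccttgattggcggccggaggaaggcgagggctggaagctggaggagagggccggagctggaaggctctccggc
Smad3, chr9:63757995-63758244, minus strand: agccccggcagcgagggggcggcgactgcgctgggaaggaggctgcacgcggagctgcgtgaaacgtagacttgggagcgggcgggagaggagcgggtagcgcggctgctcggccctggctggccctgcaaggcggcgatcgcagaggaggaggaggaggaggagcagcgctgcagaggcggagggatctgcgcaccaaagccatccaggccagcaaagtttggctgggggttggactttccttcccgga
Id3, chr4:136143572-136143821, plus strand: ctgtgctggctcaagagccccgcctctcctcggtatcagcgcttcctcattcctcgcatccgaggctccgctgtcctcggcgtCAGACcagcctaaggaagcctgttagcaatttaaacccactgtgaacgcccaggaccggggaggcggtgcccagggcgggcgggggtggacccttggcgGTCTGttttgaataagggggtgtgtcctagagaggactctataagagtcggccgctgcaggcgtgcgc
Tgfbr2 had 1 match to the core and Id3 had 2, while the Tgfb1 and Smad3 windows had 0 and no window of the 4 held another of the motifs. Over 32851 promoter entries of the same length, 42.2% held the core, 9.59% the GC-rich site, 0.167% the palindrome and 66.2% an E-box. Of the windows not shown, that of Id2 held 1 GC-rich site and 1 E-box. The first of 2 entries of Tgfbr1 held 1 GC-rich site, and the second held 1 core and 1 E-box. Tgfbr2 and Id3 therefore shared a motif common among promoters, though 1 passed the test as lower and the other did not pass.

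For each gene that passed, the genes of most similar profile were taken as those with the smallest root mean square difference in log2 CPM over the 12 libraries, centred on the CTRL mean, among 13438 genes. Smad4 had the closest matches, Atp6v1d (0.0286) and Gatad2a (0.0439). Tgfb1 was nearest to Exoc8 (0.0567) and Rock1 (0.0582), Smad3 to Zfp553 (0.0573), and Tgfbr2 to Tbc1d25 (0.0968) and Trim58 (0.112). Smad7 was nearest to Hcst (0.114) and B3gnt8 (0.120). Id1 had the most distant matches, the metallothionein Mt1 (0.363) and the neutrophil protease Ctsg (0.370), at log2 fold changes of 2.73 and 2.90. Because profiles were centred on the CTRL mean, a similar fold change is part of how a match is chosen and is no separate result.

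The wider pathway was read from 116 genes in 8 lists, of which 80 were tested. Of these, 16 were higher, 36 lower and 28 did not pass, with a median log2 fold change of -0.20, beside 30.6% higher, 29.0% lower and a median of 0.07 over all genes tested. Among the other receptors and co-receptors, 2 of 9 were higher and 6 lower (median -0.60). Eng, the endoglin co-receptor, fell from 123.1 to 138.5 CPM in CTRL to 42.98 to 61.35 in CML (log2 fold change -1.33, edgeR adjusted p = 6.54e-08). Tgfbr3, the betaglycan co-receptor that presents TGF-β to TGFBR2, was also lower (-0.86, edgeR adjusted p = 0.000208), as were the BMP type II receptor Bmpr2 (-0.60, edgeR adjusted p = 0.000821) and the activin type I receptor Acvr1b (-0.42, edgeR adjusted p = 0.000418). Acvr2a, an activin type II receptor, was higher (0.42, edgeR adjusted p = 0.00161). Bmpr1a had a log2 fold change of 3.52 (edgeR adjusted p = 0.00529) that came to 2.04 (edgeR adjusted p = 0.0191) without CML replicate 2 and to 0.31 (edgeR adjusted p = 0.470) without CML replicates 2 and 4. Of the other SMADs tested, the BMP-branch Smad5 (-0.55, edgeR adjusted p = 1.45e-06) and the inhibitory Smad6 (-0.59, edgeR adjusted p = 0.0101) were lower, and Smad1 was at -0.19 and did not pass. Smad6 and Smad7, both inhibitory, therefore moved in opposite directions.

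Among 12 cofactors tested, 10 were lower and 0 higher (median -0.45), beside 29.0% lower and 30.6% higher over all genes. They included the deubiquitinase Usp11 (-1.26, edgeR adjusted p = 1.71e-08) and the acetyltransferases Crebbp (-0.86) and Ep300 (-0.85), which SMAD complexes recruit. The values of Usp11, Crebbp and Ep300 did not overlap between the 2 groups, as for 37.6% of all genes. Of 7 tested E proteins and helix-loop-helix partners, 6 were lower and 0 higher (median -0.61), beside the same shares of all genes. Tcf3, the E2A gene, had 173.9 to 206.1 CPM in CTRL and 85.71 to 132.2 in CML (-0.90, edgeR adjusted p = 1.75e-06). Tal1 (-0.78), Lyl1 (-0.61) and Tcf4 (-0.58) were lower as well. These are differences between the groups, as is the rise of Id1, and a relation between Id1 and these genes over single libraries was not tested. Of 17 inhibitors and antagonists tested, 4 were higher and 7 lower (median 0.06), beside 30.6% higher and 29.0% lower over all genes. The nuclear repressor Ski was lower (-0.90, edgeR adjusted p = 0.00207), as was the ubiquitin ligase Trim33 (-0.53), while the pseudoreceptor Bambi (1.11, edgeR adjusted p = 2.83e-05), the activin-binding Fstl3 (1.69) and the receptor-associated Strap (0.88) were higher. A log2 fold change of 2.49 for Pmepa1 (edgeR adjusted p = 0.0356) turned to -1.08 (edgeR adjusted p = 0.00642) without CML replicates 2 and 4.

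**Figure D4:**
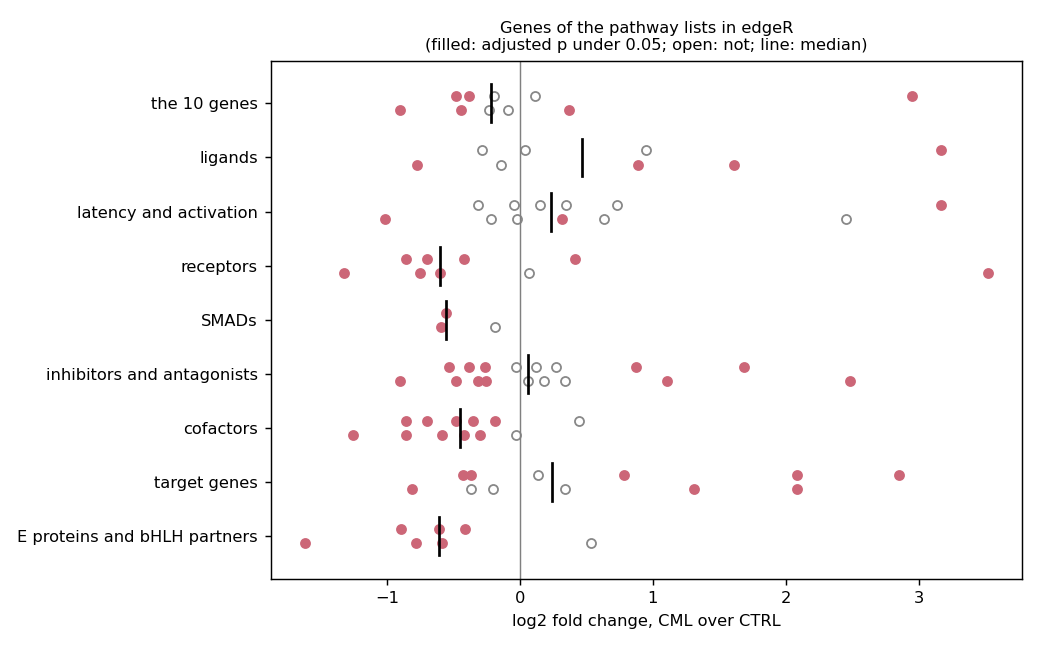
Log2 fold change of CML over CTRL (linear axis) for every tested gene of the 10 genes and of the 8 pathway lists, 1 point per gene, filled where the edgeR adjusted p was under 0.05, with the median of each list as a vertical line. The SMADs, the cofactors and the E proteins and partners have filled points to the left of 0 only.

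Genes induced by TGF-β in other cells did not share a direction, with 5 of 12 tested higher and 3 lower (median 0.24). Over all genes, 30.6% were higher and 29.0% lower. Rgcc, a cell cycle regulator, had 10.21 to 12.99 CPM in CTRL and 28.81 to 71.59 in CML (2.09, edgeR adjusted p = 5.37e-07). Spsb1 (2.85, and 2.38 without CML replicates 2 and 4), Bhlhe40 (2.09, and 1.43 without CML replicate 2) and the matrix gene Tgfbi (0.78, edgeR adjusted p = 1.4e-05) were higher too. Spsb1 was near the floor in CTRL, with 7 to 20 counts per library. Klf10, an early TGF-β response gene, was lower (-0.81, edgeR adjusted p = 5.5e-07), as was the cell cycle inhibitor Cdkn1b (-0.43, edgeR adjusted p = 0.000564). Of 8 ligands tested, 3 were higher and 1 lower (median 0.47), beside the same shares of all genes. Without CML replicates 2 and 4 the counts were 2 and 2 (median -0.14). Bmp7 was higher at low levels (1.61, edgeR adjusted p = 0.00258, and 1.01 without CML replicate 2). Lefty1, also at low levels (50 to 104 counts in CTRL, 15 to 40 in CML), was lower (-0.78, edgeR adjusted p = 0.00328). Inhba, the activin A subunit, was at 3.17 (edgeR adjusted p = 0.0195) over all libraries and at 0.03 (edgeR adjusted p = 0.974) without CML replicates 2 and 4. Of 12 genes of latency and activation, 2 were higher and 1 lower (median 0.23), again beside 30.6% and 29.0% of all genes. Nrros, which holds latent TGF-β1 on myeloid cells, rose from 197.4 to 218.3 CPM in CTRL to 238.5 to 290.8 in CML (0.32, edgeR adjusted p = 0.000404), and Ltbp3, a binding protein of latent TGF-β, was lower (-1.01, edgeR adjusted p = 0.00219). Without CML replicates 2 and 4, 8 of these 12 genes were lower and 1 higher (median -0.69), and of 13 target genes tested 5 were higher and 7 lower (median -0.46). In the same setting the counts over the 8 lists came to 12 higher and 51 lower of 82 tested, beside 32.0% of all genes in each direction. This setting took libraries from CML only. The stromal and endothelial totals of the CML libraries left reached at most 222.9 CPM, below the lowest CTRL total of 227.5. The part of that imbalance in the lower counts was not tested.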

How the data were processed

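Total RNA of 12 flow-sorted samples (6 CTRL, 6 CML) was sequenced as paired-end bulk libraries. The authors deposited raw counts per Ensembl gene, 1 table per library, with no normalisation. The submitters' processing notes name FastQC 0.11.9, fastp 0.23.2, STAR 2.7.10a, featureCounts 2.0.1, DESeq2 1.36.0 and build GRCm39, whereas the study's methods name Trim Galore, HISAT2 and a human build for bulk RNA-seq. Which annotation was counted, whether strand was used and what became of multi-mapping reads are not given in the sources used here, so reads shared with overlapping genes could be split. Of 56748 identifiers, 52073 matched a symbol and 0 rows named no gene.

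Counts were tested with the quasi-likelihood test of edgeR 4.0.16 under R 4.3.3, after filterByExpr (18438 genes kept) and TMM scaling, with group as the only term and Benjamini-Hochberg adjustment over all genes (threshold 0.05). CPM values are TMM-normalised, and log2 values for profiles used a prior count of 2. The lengths used for CPM per kilobase are merged exons of GENCODE M21 on GRCm38, another build than that of the counts. Marker totals were compared by exact permutation, adjusted over 9 lists, where the smallest p possible is 0.00216. On simulated counts for this comparison (18130 genes), 145 of 193 changed genes were recovered, 0 in the wrong direction, and 9 of 17937 unchanged genes were called. The simulation changed few genes, in random directions, with the same spread in both groups. In the data 59.5% of genes were called and the spread was wider in CML. The simulation therefore does not give the error rate for them.

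The 10 genes, the lists and the tests were chosen with earlier results of these data known. Named were the 10 genes, in each list up to 4 genes per direction with the smallest adjusted p and up to 2 that did not pass with the highest mean CPM, and the 2 genes of most similar profile to each of the 10 that passed (mean log2 CPM of at least 1). A gene of similar profile is not reported here. Alternatives were other scaling factors, no filter, DESeq2 1.42.0, limma 3.58.1 (voom with sample quality weights), a replicate block and libraries left out. No 2 libraries agreed within sampling noise.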

Additional observations from a re-analysis of the deposited data

Results flagged for a closer look

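Single libraries were flagged where the highest or lowest of the 6 values of a group stood apart from its neighbour by more of the whole range than Dixon's 95% critical value for 6 samples allows. Of 140 groups examined, 23 were flagged (about 7.0 would be by chance). CML replicate 2 accounted for 18 of them. No explanation was weighed.

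Among the 10 genes, Tgfbr1 was flagged at 128 CPM in CML replicate 2, where the next highest library had 92.4, and Smad7 at 42.0 CPM in CTRL replicate 4, where the next had 34.0. CML replicate 2 was also the highest of its group for the ligand genes Bmp7 (5.68 CPM), Inhba (84.3) and Bmp1 (53.5), and for the latency genes Ltbp3 (82.6), Ltbp2 (19.7) and Furin (270). The same library stood out for the receptor Bmpr1a (20.6), the inhibitors Smurf2 (80.4), Ski (81.8) and Pmepa1 (49.6), and the target genes Spsb1 (6.66), Bhlhe40 (66.1), Ahnak (486) and Junb (116). Its summed markers stood out as stromal and endothelial (979 CPM), mast cell and basophil (2680) and megakaryocyte and platelet (256). Inhba was further flagged at 6.51 CPM in CTRL replicate 4, and the neutrophil markers at 4550 CPM in the same library. Acvr1b was flagged in both libraries numbered 6, as the highest CTRL value (109 CPM) and the lowest CML value (54.8).

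CML replicate 2 was the highest of the 12 libraries for 52 of the 116 pathway genes (44.8%, beside 14.4% of all genes), and it was first with CML replicate 4 second for 28 of them (24.1%, beside 2.65% of all genes).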

How the results depend on the processing

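Over 21 alternatives, Tgfb1, Tgfbr2, Smad3, Smad4 and Id1 passed the threshold in 21 with their direction unchanged, Smad7 in 20, Id3 and Smad2 in 2, Id2 in 1 and Tgfbr1 in 0. Of 1277 values of the 61 named genes, 1235 kept their side of the threshold with no change of a called direction, 19 were no longer past it, 19 newly passed it and 4 reversed. In all, 36 values of 12 genes changed sign, 32 of them past the threshold in neither fit, among them values of Tgfbr1 and Id3. The 4 reversed were Pmepa1 (-0.0636 with limma-voom, -1.0757 without CML replicates 2 and 4), Ltbp2 (-0.068) and Zfyve9 (-1.0521), both without those replicates, and the cause was not tested. Of the 10 genes, 1 was called higher with limma-voom, where Smad7 was lost, and pathway genes called higher numbered 28 with no filter, against 16, as more genes were tested. Replicate numbers did not pair the libraries, since the deviations of same-numbered libraries correlated between -0.125 and 0.0679 and only replicate 1 correlated best with its own number. The replicate block gave 9975 calls over all genes against 10976 and left 2 of the 10 genes higher and 4 lower, and 12 pathway genes higher and 37 lower. Inhba was at 4.24 without CTRL replicate 4. Without CML replicate 2 alone, Inhba (0.85, adjusted p = 0.277), Ltbp2 (1.31, 0.0821) and Pmepa1 (0.54, 0.459) no longer passed in edgeR, while Bmp1 (-1.30), Smad1 (-0.29) and Ahnak (-0.96) newly passed as lower. Pmepa1 was also lost without CML replicate 4 or any 1 CTRL library, and Fkbp1a passed without CML replicate 3 or 6. Depth limits Id3 most, with 0 to 65 counts per library. The limits given for the Id3 counts of 0 cover counting error only, whereas the edgeR standard errors also take in the spread between libraries.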
